A study of Mus musculus with 10 samples.

Results

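The comparison described here is that of CD4+ cells from the spleens of Il1rn knockout and wild-type mice at 4 months of age. Arrays were taken by their titles, which name cell fraction, genotype, age and replicate, and this gave 5 of the 10 arrays of the series, 2 from knockout and 3 from wild-type mice. The other 5 arrays, again 2 knockout and 3 wild type, came from mice of 1 month. The design text counts mice by genotype and age, and the title of the series names arthritis. All groups were CD4+ cells of mouse spleen, and total RNA had been extracted with Trizol and labelled with biotin. Strain, sex, how the Il1rn allele was made, how the CD4+ cells were selected, their purity, and whether the single mice had arthritis are not stated by the labels.

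Il1rn encodes the interleukin-1 receptor antagonist, a secreted protein that occupies the receptor Il1r1 without starting a signal. Interleukin-1 itself acts through Il1r1 and the accessory chain Il1rap, and passes its signal by the adaptor Myd88 and Irak kinases to NF-kB. In T cells interleukin-1 is known as a costimulus that favours interleukin-17 production, and mice without the antagonist are known to develop T cell dependent arthritis on some strain backgrounds.

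The fit used log2(deposited intensity + 16) for 11759 genes, with 1 probe set for each, and kept probe sets brighter than the array median on 2 or more of the 10 arrays. Differences are knockout minus wild type on that scale, followed by ± the standard error, and folds are on the same scale, which understates the change of dim genes. A gene was called at a Benjamini-Hochberg adjusted p under 0.05 in limma over all 11759 genes. At 4 months the arrays had medians of 98.6 to 109. Their correlations across genes were 0.972 between the knockout arrays, 0.97 to 0.977 among wild-type arrays and 0.96 to 0.97 between genotypes. Between 639 and 906 genes differed by at least 2-fold from a knockout to a wild-type array, against 620 between the knockout arrays and 471 to 599 among wild-type arrays. The first principal component of these 5 arrays held 37% of the variance and placed the knockout arrays at -27.5 and -21.6 and the wild-type arrays at 8.04, 25.5 and 15.6. Whether arrays of a genotype shared a litter, cage or processing day is not given, so p-values measure the spread between these mice and arrays.

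Il1rn itself could not check the labels, since all 3 of its probe sets were dim in both genotypes and none passed the filter. The probe set 1451798_at read 2.76 and 30.9 in knockout mice and 60.4, 60.8 and 55.7 in wild-type mice. The probe set 1425663_at read 52.9 and 45.9 against 40.4, 32.5 and 43.3. On 1423017_a_at, 1 wild-type array read 125 and the other arrays of 4 months 11.3 to 15.6. Which part of the gene was deleted, and where these probes lie, was not analysed here. Cd4 and general T cell markers were bright in all arrays of 4 months, which does not show how pure the cells were. Cd4 read 3572 and 4802 in knockout and 3977, 2836 and 3487 in wild-type arrays, and the 8 markers Cd4, Cd3e, Cd3d, Cd3g, Thy1, Cd5, Cd28 and Lat all lay at percentile 94.3 to 99.5 of their arrays.

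Of the 11759 genes, 10 differed between genotypes at 4 months (0.085%), 4 of them higher in knockout cells (0.034%) and 6 lower (0.051%). Hspa1b, Arl2bp, Clec2d and Cxcr4 rose, by 5.14-fold to 12.4-fold. Oas1b, Mpeg1, Ctps2, Sfi1, Cirbp and Glo1 fell, by 2.25-fold to 12.1-fold. In each of the 10 the knockout arrays lay outside the range of the wild-type arrays. Such separation was common with so few arrays: both knockout arrays lay above all wild-type arrays for 1880 genes (16%) and below them for 2061 (17.5%). Counts of list members that lay apart, given below, are to be read beside these shares. An unadjusted p under 0.05 was reached by 323 genes with higher knockout values (2.75%) and 574 with lower ones (4.88%), together 897 where 588 are expected if no gene differs. The median difference of all genes was -0.01.

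**Figure D1:**
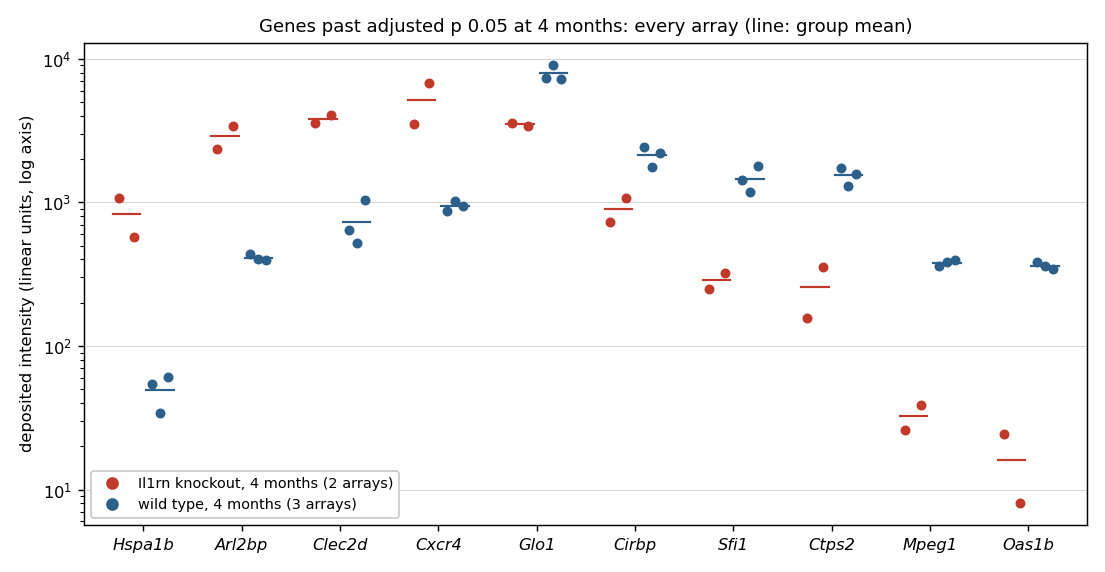
Deposited intensity (log axis) of the 10 genes past adjusted p 0.05 in each of the 5 arrays of 4 months, with group means as lines. Knockout points lie above all wild-type points for Hspa1b, Arl2bp, Clec2d and Cxcr4 and below them for the other 6 genes, with Oas1b at 24.3 and 8.06 against 342 to 386.

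**Figure D2:**
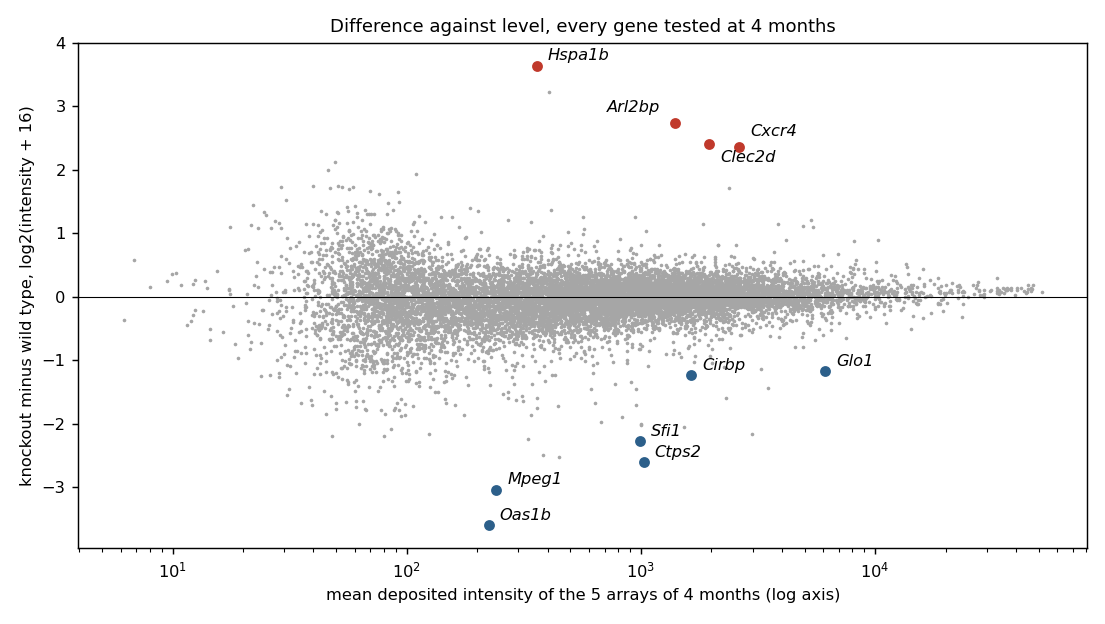
Knockout minus wild type at 4 months on the log2(intensity + 16) scale against the mean intensity of the 5 arrays, for all 11759 genes, with the 10 called genes coloured and named. Dim genes scatter widely around 0. The called genes run from Hspa1b at 3.64 to Oas1b at -3.60. Some genes not called lie as far from 0 as called ones, such as H2-Eb1 at -2.06 beside Cirbp at -1.24.

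Hspa1b, the stress-inducible HSP70 chaperone, showed the highest rise. Its knockout values were 1072 and 578 and its wild-type values 54.1, 34.3 and 60.6. Even the lower knockout value was far above every wild-type value. The difference was 3.64 ± 0.35 (adjusted p = 0.000592, 12.4-fold), and 2 further probe sets of the gene gave 3.53 ± 0.53 and 3.71 ± 0.40. Hspa1a is a nearly identical gene, so probes of the 2 genes may share signal; its own probe set was below the filter, at 69.9 and 44.1 in knockout and 11.6, 10.2 and 41.6 in wild-type arrays. Without knockout array 1, which had the higher Hspa1b value, the adjusted p was 0.0511.

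Other chaperones did not pass the threshold in the main fit, though several came near it. Chordc1, a co-chaperone of HSP90, was the first gene outside the threshold, at 6269 and 5260 in knockout and 3085, 3162 and 2982 in wild-type arrays (0.90 ± 0.15, adjusted p = 0.0745). Dnaja1, an HSP40 co-chaperone of HSP70, read 15934 and 12514 against 7489, 7989 and 7346 (0.89 ± 0.16, adjusted p = 0.0974), and its 2 other probe sets gave 0.82 ± 0.17 and 0.47 ± 0.21. Hsph1, the nucleotide exchange factor HSP110, read 6881 and 4573 against 1813, 3137 and 2788 (1.15 ± 0.22, adjusted p = 0.115). In all of these the knockout arrays lay apart from the wild-type arrays. Dnajb1, another HSP40, read 5013 and 4661 against 2622, 3271 and 2976 (0.71 ± 0.19, adjusted p = 0.347). Chordc1, Dnaja1 and Dnajb1 passed with only the 5 arrays of 4 months and with array weights, where 75 and 183 genes were called. Hsph1 passed with array weights only. Hsp90aa1, an HSP90 chaperone, overlapped between groups, at 19012 and 15683 against 12684, 16816 and 13141. The probe sets of Hspa8, the constitutive HSP70, disagreed. The one used in the fit overlapped, at 11948 and 11563 against 7853, 11683 and 7518 (0.41 ± 0.22). The other 3 that were kept lay apart above in knockout arrays, and 1431182_at, the dimmest, read 1365 and 1148 against 269, 230 and 308 (2.16 ± 0.28), while the remaining 2 gave 0.43 ± 0.18 and 0.56 ± 0.17.

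Counted by family, both knockout arrays lay above all wild-type arrays in 5 of 11 HSP70 genes, 8 of 17 HSP90 genes and co-chaperones and 8 of 24 HSP40 genes, beside 16% of all genes. They lay below them in 1, 3 and 2 genes, beside 17.5%. Family medians were 0.25, 0.28 and 0.12, or 0.16, 0.17 and 0.06 without knockout array 1. The HSP90 median fell to 0.08 with the replicate number as a block, and the HSP40 median to 0.01 with the mean of the probe sets. Besides Chordc1, the HSP90 co-chaperones with the smallest p-values were Ahsa1, the activator of the HSP90 ATPase (0.45 ± 0.13), and Ahsa2 (0.69 ± 0.21). Chaperonins and small heat shock proteins were near the background, with 2 of 17 apart in each direction and a median of 0.08 (0.03 without knockout array 1, 0.14 without knockout array 2). Among 22 genes of endoplasmic reticulum stress 7 lay apart above and 1 below (median 0.14, or 0.08 without wild-type array 1 and 0.25 without wild-type array 2), with Herpud1, a factor of protein degradation at that membrane, at 4007 and 4176 against 2746, 2794 and 2855 (0.55 ± 0.13, adjusted p = 0.304), while Ddit3, the stress factor CHOP, read 624 and 583 against 875, 758 and 794.

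Heat shock factors bind inverted repeats of a short GAA unit, and the bases upstream of Hspa1b, Hsph1 and Dnaja1 are shown because, of the chaperone genes searched that passed the filter, these had a match in their window; they were chosen after the search. Hsf1 itself was not measured here. Each sequence is the 250 bases before a RefSeq start site (build GRCm38.p6), 5′ to 3′ on the strand of the gene, with capitals at matches to GAANNTTC or TTCNNGAA, each of which reads the same on both strands. The Hspa1b window is chr17:34959239-34959488 on the minus strand, that of Hsph1 is chr5:149636337-149636586 on the minus strand, and that of Dnaja1 is chr4:40722218-40722467 on the plus strand.
Hspa1b: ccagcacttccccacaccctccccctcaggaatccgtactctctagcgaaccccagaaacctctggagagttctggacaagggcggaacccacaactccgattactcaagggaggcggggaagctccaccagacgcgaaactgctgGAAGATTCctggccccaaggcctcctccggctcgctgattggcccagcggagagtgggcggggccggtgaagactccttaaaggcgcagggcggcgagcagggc
Hsph1: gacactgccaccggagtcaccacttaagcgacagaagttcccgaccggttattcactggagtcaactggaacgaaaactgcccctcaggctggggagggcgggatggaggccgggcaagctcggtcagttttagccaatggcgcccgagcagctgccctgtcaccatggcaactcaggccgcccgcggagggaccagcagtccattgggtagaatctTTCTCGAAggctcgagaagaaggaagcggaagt
Dnaja1: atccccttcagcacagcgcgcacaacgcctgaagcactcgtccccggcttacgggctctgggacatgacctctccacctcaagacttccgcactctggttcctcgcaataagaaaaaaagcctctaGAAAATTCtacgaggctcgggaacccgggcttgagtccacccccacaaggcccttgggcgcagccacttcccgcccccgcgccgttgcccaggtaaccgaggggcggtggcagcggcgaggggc

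Each window held 1 match, starting 104 bases before the start site in Hspa1b, 33 in Hsph1 and 124 in Dnaja1. Of all 32851 such windows in the table, 12.8% held at least 1 match to either motif. The differences of the 3 genes were unequal (3.64, 1.15 and 0.89). Chordc1 and Dnajb1, at 0.90 and 0.71, had 0 matches in their windows, as had the 2 later start sites of Dnaja1, and Cxcr4 and Glo1 had 1 each. These letters describe the windows only.

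Cxcr4, the receptor of the chemokine Cxcl12 that guides lymphocytes in marrow and lymphoid tissue, read 3523 and 6796 in knockout arrays and 870, 1015 and 940 in wild-type arrays. Both knockout values exceeded all wild-type values, and the 2 knockout mice differed from each other more than the wild-type mice did. The difference was 2.36 ± 0.22 (adjusted p = 0.000592, 5.14-fold). Cxcr4 was the only member called among 24 measured chemokine receptors and homing molecules. Of these 2 lay apart above and 5 below, beside 16% and 17.5% of all genes, and the median was -0.07. This median had no stable sign, at 0.03 without knockout array 1, 0.02 without wild-type array 1 and 0.09 with the filter at percentile 75. Cxcl12 was dim and overlapped, at 36.7 and 75.4 against 57.4, 7.59 and 50.8. Ccr7, the homing receptor of naive T cells, read 7144 and 8564 against 8187, 6147 and 7850, so the groups overlapped. Cxcr3 and Cxcr6, receptors of effector cells, read 1799 and 2040 against 2855, 2387 and 2940, and 2702 and 4013 against 4845, 4224 and 4497. Cd69, an activation marker that retains cells in tissue, overlapped between groups (0.68 ± 0.25, adjusted p = 0.539).

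Cxcr4 also belongs to a list of genes that glucocorticoids are known to induce in lymphocytes. Of its 23 measured members, both knockout arrays lay above all wild-type arrays in 14 and below them in 0, against 16% and 17.5% of all genes, and the median was 0.27. Cxcr4 was the 1 member called. Tsc22d3, the glucocorticoid-induced leucine zipper GILZ, read 5930 and 10354 against 4040, 2757 and 3433 (1.21 ± 0.23, adjusted p = 0.101). Ddit4, an inhibitor of mTORC1 signalling, read 5043 and 11368 against 3799, 3136 and 3769 (1.09 ± 0.34, adjusted p = 0.471), and Fkbp5, a co-chaperone of the glucocorticoid receptor, 1267 and 1664 against 926, 833 and 977 (0.66 ± 0.22, adjusted p = 0.49). A further probe set of Tsc22d3 and one of Fkbp5 overlapped between genotypes (0.44 ± 0.27 and 0.39 ± 0.28). In Cxcr4, Tsc22d3, Ddit4 and Fkbp5 knockout array 2 read higher than knockout array 1. For Hspa1b, Hsph1 and Dnaja1 the order was opposite, with array 1 the higher. Hormone levels were not analysed here.

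Immediate early genes, which respond to stimulation within minutes, gave 7 of 23 members apart above and 3 below, with a median of 0.15 and 0 called by limma; 4 higher and 1 lower had an unadjusted p under 0.05. The median was 0.08 without knockout array 2 or wild-type array 2 and 0.09 with array weights. Fos and Jun, the partners of the factor AP-1, read 793 and 949 against 247, 402 and 435 for Fos (1.26 ± 0.36, adjusted p = 0.38), and 235 and 260 against 94.2, 97.5 and 93.7 for Jun (1.25 ± 0.33, adjusted p = 0.347). The second kept probe set of Jun overlapped, at 76.9 and 74.3 against 77.1, 66.2 and 92 (-0.04 ± 0.39). The list did not move together, since Ier3, a survival factor induced by NF-kB, read 48.8 and 95.1 against 179, 211 and 203 (-1.33 ± 0.38, adjusted p = 0.382).

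Arl2bp, a protein that binds the small GTPase Arl2, had the smallest p of all genes. Its values were 2350 and 3415 in knockout against 438, 401 and 396 in wild-type mice, a difference of 2.74 ± 0.23 (adjusted p = 0.000519, 6.67-fold). A second probe set of the gene gave 3.48 ± 0.19. At 1 month the difference was 3.19 ± 0.23, so that this gene stood apart by genotype at both ages. It passed in all 20 alternatives of processing.

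Clec2d, a lectin-like surface protein that is a ligand of an inhibitory natural killer cell receptor, read 3554 and 4026 in knockout and 641, 523 and 1039 in wild-type arrays. The difference was 2.40 ± 0.37 (adjusted p = 0.0436, 5.27-fold) and the gene had no other probe set that passed the filter. At 1 month it was -0.48 ± 0.37, with 1022 to 1166 in knockout and 817 to 2387 in wild-type arrays. The call passed in 9 of 20 alternatives. It was lost without either knockout array or wild-type array 1 or 2 of 4 months (adjusted p = 0.136 to 0.391), without either knockout array or wild-type array 1 of 1 month (0.0518 to 0.0632), with the replicate number as a block (0.132), with no intensity trend (0.201), with the filter at percentile 75 (0.0511) and with the mean of the probe sets (0.0505).

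Oas1b, a member of the oligoadenylate synthetase family and known as the flavivirus resistance gene of mice, showed the largest fall. It read 24.3 and 8.06 in knockout arrays against 386, 358 and 342 in wild-type arrays. The knockout values were near the floor of the arrays, and the difference of -3.60 ± 0.34 (adjusted p = 0.000592) came to -4.58 with a pseudocount of 1 and -2.42 with one of 64. At 1 month the gene was called as well (-2.90 ± 0.34, adjusted p = 0.00987). Oas1a, an enzyme of the same family, read 44.9 and 161 against 596, 553 and 557 at 4 months (-2.49 ± 0.49, adjusted p = 0.12) and was called at 1 month (-3.30 ± 0.49, adjusted p = 0.0292). Oas1c read 202 and 226 against 371, 315 and 273, whereas Oas2 read 293 and 151 against 180, 163 and 177 and Oas3 50 and 155 against 160, 81.9 and 159, so that these last 2 overlapped.

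The OAS genes are induced by interferon through elements that contain the core AANNGAAA, and the 250 bases upstream of Oas1a are shown because its values were low in knockout cells at both ages. The window is chr5:120907526-120907775 (GRCm38.p6, minus strand), with capitals at matches to AANNGAAA on either strand.
Oas1a: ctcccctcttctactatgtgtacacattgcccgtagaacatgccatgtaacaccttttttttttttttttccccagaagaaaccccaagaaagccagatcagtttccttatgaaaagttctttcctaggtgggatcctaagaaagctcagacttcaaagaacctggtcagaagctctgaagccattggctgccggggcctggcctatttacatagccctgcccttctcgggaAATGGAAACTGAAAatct
It held 2 matches, which overlap and begin 18 bases before the start site. Of the 32851 windows 21.3% held at least 1 match and 4.2% at least 2. Oas1b had no entry in the table. Of 32 other interferon response genes measured, 8 lay apart above (25%) and 4 below (12.5%), beside 16% and 17.5% of all genes. Their median was 0.09, or 0.03 without knockout array 1 and 0.15 without knockout array 2. Igtp and Irgm1, GTPases induced by interferon gamma, read 12326 and 8422 against 7873, 5908 and 6824, and 2824 and 2201 against 2003, 1606 and 1836 (adjusted p = 0.571 and 0.53). Irf8, a factor of myeloid and B cells, read 247 and 321 against 536, 558 and 598 (-0.96 ± 0.24, adjusted p = 0.304).

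Ctps2, which makes CTP from UTP, read 157 and 357 in knockout arrays and 1747, 1309 and 1579 in wild-type arrays. The difference was -2.61 ± 0.31 (adjusted p = 0.00516, 6.1-fold), and it was also called at 1 month (-2.39 ± 0.31, adjusted p = 0.0187). A second, dim probe set gave -1.37 ± 0.55. Without knockout array 1 the adjusted p was 0.0736, and with no intensity trend 0.0518. Of the 19 measured genes of pyrimidine synthesis 6 lay apart below and 2 above (median -0.06, from -0.26 with no filter to -0.01 without knockout array 1). Tk1, the thymidine kinase of dividing cells, read 948 and 890 against 1397, 2674 and 1534 (adjusted p = 0.347).

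Glo1, the glyoxalase that removes methylglyoxal, read 3570 and 3402 in knockout arrays and 7339, 9104 and 7243 in wild-type arrays. The difference was -1.17 ± 0.15 (adjusted p = 0.00808, 2.25-fold), and the other 3 probe sets gave -1.20 ± 0.16, -0.66 ± 0.20 and -1.29 ± 0.22. At 1 month the probe set of the fit gave -0.63 ± 0.15 (adjusted p = 0.281). The other 3, in the same order, gave -1.07, -0.26 and -1.23 at that age. The 4-month call was lost without knockout array 1 or 2 (adjusted p = 0.138 and 0.128) and with no intensity trend (0.0824). Of the 27 glyoxalase and glutathione genes 9 lay apart below and 1 above, with a median of -0.15, which was -0.29 without wild-type array 1 and -0.30 with the mean of the probe sets. Gstm5 and Mgst3, glutathione transferases, differed by -0.69 ± 0.20 and -0.93 ± 0.32 and did not pass.

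Sfi1, a centrin-binding protein of the centrosome, read 250 and 324 in knockout and 1423, 1187 and 1779 in wild-type arrays. The difference was -2.28 ± 0.32 (adjusted p = 0.0187, 4.86-fold), with -1.27 ± 0.36 on a second probe set and -1.71 ± 0.32 at 1 month. Other probe sets listed for Sfi1 also match another gene model and were left out of the gene fit, so the copy measured is uncertain. The call was lost without either knockout array or without wild-type array 1 or 3 (adjusted p = 0.0982 to 0.39), and with no intensity trend (0.0904).

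Cirbp, an RNA-binding protein induced by mild cold, read 729 and 1078 against 2448, 1763 and 2209. It differed by -1.24 ± 0.19 (adjusted p = 0.0436, 2.37-fold), and no other probe set of it was kept. The call was lost without knockout array 1 or 2 or wild-type array 1 or 3 of 4 months, or wild-type array 1 or 3 of 1 month (adjusted p = 0.0575 to 0.485), with the replicate number as a block (0.144), and with no intensity trend (0.17). Its relative Rbm3 was not measured here. At 1 month Cirbp gave -0.44 ± 0.19 (adjusted p = 0.567).

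Mpeg1, the pore-forming protein perforin-2 of macrophages and other phagocytes, read 26 and 39.1 in knockout arrays and 359, 387 and 396 in wild-type arrays. The difference was -3.04 ± 0.49 (adjusted p = 0.0479, 8.23-fold). It passed in 6 of 20 alternatives. It was lost without any 1 of the 5 arrays of 4 months (adjusted p = 0.136 to 0.485), without either knockout array or wild-type array 3 of 1 month (0.053 to 0.0718), with a pseudocount of 64 (0.106), with the replicate number as a block (0.132), and with no intensity trend (0.201). It was also lost with no filter, with the filter at percentile 75 and with the mean of the probe sets (0.0522 to 0.0654). Markers of several other cell types lay with it. In bulk RNA fewer cells of a type and less RNA per cell cannot be told apart, and the part of these cells in the calls was not tested.

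Among 26 macrophage and monocyte genes the knockout arrays lay below all wild-type arrays in 13 and above in 0 (median -0.58, or -0.30 without wild-type array 2), with summed intensities of 9290 and 11144 against 11971 to 15854. Mpeg1 was the 1 gene called. Csf1r, the receptor of the macrophage growth factor, read 94.3 and 144 against 282, 523 and 420 (-1.63 ± 0.38, adjusted p = 0.268). Its other kept probe sets gave -1.07 ± 0.51, with separate groups, and 0.04 ± 0.32, at 200 and 289 against 179, 280 and 251. Tyrobp, a signal adaptor of myeloid and NK cells, differed by -1.23 ± 0.38. The defining markers Cd68 (-0.39 ± 0.35) and Adgre1 (-0.07 ± 0.29) overlapped between the groups.

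B cell genes lay below in 14 of 22 and above in 0 (median -1.01), with sums of 63076 and 60554 against 49244 to 67402. Ms4a1, the B cell surface protein CD20, read 221 and 399 against 943, 1154 and 1420 (-1.90 ± 0.41, adjusted p = 0.202). Cd79a, a chain of the B cell receptor, read 288 and 390 against 664, 686 and 1096 (-1.20 ± 0.51, adjusted p = 0.621). Ly86, a partner of a B cell Toll-like receptor, read 93.7 and 155 against 465, 451 and 541 (-1.87 ± 0.33, adjusted p = 0.0921), and Fcmr, the Fc receptor of IgM, 259 and 210 against 799, 1037 and 1060 (-1.97 ± 0.35, adjusted p = 0.0974). Pax5, the defining factor of the lineage, was near the array median in all arrays (95.7 to 119). Blnk, a further B cell marker, overlapped, at 324 and 559 against 366, 627 and 705 (-0.34 ± 0.46). Antigen presentation on MHC class II, which B cells, macrophages and dendritic cells share, had 8 of 10 genes below and 0 above (median -1.59), with sums of 12178 and 14984 against 21144 to 27516. H2-Aa, a class II chain, read 618 and 1390 against 3588, 3880 and 5408 (-2.17 ± 0.58, adjusted p = 0.347). Ms4a1, Ly86, Fcmr and H2-Aa passed with only the 5 arrays of 4 months and with array weights, and Cd79a in neither fit. Among 12 plasma cell genes 1 lay above and 0 below, with a median of 0.10 that turned to -0.15 without knockout array 2 and to -0.10 without wild-type array 1. Jchain, the joining chain of secreted antibodies, read 29586 and 30147 against 19609, 31636 and 26795.

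CD8 T and NK cell genes lay below in 12 of 18 and above in 0 (median -0.86), with sums of 4505 and 7072 against 10504 to 11216. Cd8a, the coreceptor of cytotoxic T cells, read 30.9 and 245 against 465, 965 and 528 (-2.52 ± 0.66, adjusted p = 0.341), and Klrd1, a receptor of NK cells, 298 and 497 against 893, 797 and 748 (-1.04 ± 0.22, adjusted p = 0.177). Mast cell and basophil genes lay below in 6 of 10 and above in 0 (median -0.50, or -1.14 with the filter at percentile 75; sums 2064 and 1722 against 3067 to 3619), with Cpa3, a mast cell protease, at 268 and 305 against 1031, 633 and 830. Erythroid genes lay below in 8 of 16 and above in 0 (median -0.63; sums 56765 and 40871 against 50513 to 88312), and dendritic cell genes below in 6 of 13 and above in 2 (median -0.40). The erythroid median was -0.34 without knockout array 2 or wild-type array 2, and the dendritic cell median -0.26 without wild-type array 1 and -0.17 with no filter. Of the dendritic cell markers, Itgax read 61.2 and 49.8 against 126, 140 and 170. Flt3 overlapped, at 102 and 142 against 86.1, 130 and 129 (0.08 ± 0.33). All defining markers that were measured read above 0, which does not show that the cells were present. C1qa, of macrophages, read only 3.14 and 5.47 in knockout arrays and 28.7, 131 and 28.6 in wild-type arrays (-1.71 ± 0.97). The macrophage markers C1qb and Cd14 overlapped between genotypes. C1qb read 41 and 94.1 against 69, 130 and 50.4 (-0.24 ± 0.73). Cd14 read 63.7 and 69.9 against 73.1, 15.4 and 32.4 (0.69 ± 0.47).

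The summed intensities of granulocyte genes went by mouse and not by genotype. S100a8, a calcium-binding protein of neutrophils, read 198 and 2988 against 254, 3385 and 639, high in knockout array 2 and wild-type array 2. The list gave 1 of 22 genes apart above and 2 below. In limma, 3 genes with higher and 2 with lower knockout values had an unadjusted p under 0.05, beside 2.75% and 4.88% of all genes. The list had sums of 3207 and 11707 against 2248, 11602 and 3060. Its median moved from 0.26 to -0.20 without knockout array 2 and to 0.89 without knockout array 1, and was 0.07 without wild-type array 1 and 0.65 without wild-type array 2.

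**Figure D3:**
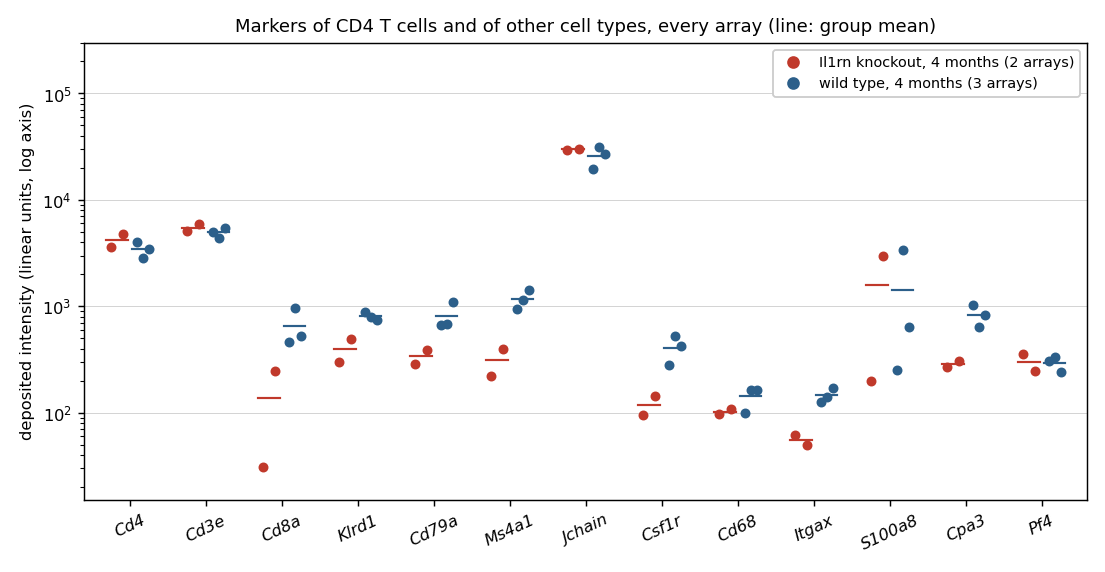
Deposited intensity (log axis) of markers of CD4 T cells (Cd4, Cd3e) and of other cell types in the 5 arrays of 4 months, with group means as lines. Cd4, Cd3e, Jchain, Cd68 and Pf4 overlap between genotypes, Cd8a, Klrd1, Cd79a, Ms4a1, Csf1r, Itgax and Cpa3 are lower in both knockout arrays than in all wild-type arrays, and S100a8 varies by mouse from 198 to 3385. Not all markers are drawn. Of those left out, Cd8b1, Cd79b, Cd22 and Mcpt8 were also lower in both knockout arrays, while Flt3, Blnk, Pax5 and Adgre1 overlapped.

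Among 14 identity genes of CD4 T cells 5 lay apart above and 1 below (median 0.15), and Cd3e read 5084 and 5918 against 5039, 4362 and 5454. Of 27 genes of T cell receptor signalling 10 lay above and 1 below (median 0.18). Cd28, the costimulatory receptor, read 6643 and 6560 against 5350, 4265 and 4637 (0.48 ± 0.14, adjusted p = 0.4), and Sos1, an exchange factor of Ras, 1577 and 1361 against 921, 903 and 996 (0.63 ± 0.21, adjusted p = 0.489). The other 3 kept probe sets of Sos1 gave -0.04 to 0.21. Cytokine receptor and JAK-STAT genes lay above in 11 of 32 and below in 0, beside 16% and 17.5% of all genes (median 0.14). Jak1 was among those above, at 13983 and 12836 against 11315, 10133 and 10335, where a further probe set of Jak1 overlapped (0.04 ± 0.31). None of these genes was called by limma, and an unadjusted p under 0.05 was reached by 1, 2 and 0 genes of the 3 lists. The identity median was 0.02 and the signalling median 0.08 without knockout array 2. Without wild-type array 2 the identity, signalling and cytokine receptor medians were 0.05, 0.08 and 0.06. With the mean of the probe sets the identity median was 0.03 and the cytokine receptor median 0.09.

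Effector and memory genes lay below in 11 of 28 and above in 0 (median -0.33), and Th1 genes below in 6 of 12 and above in 1 (median -0.56). Without knockout array 1 these medians were -0.05 and -0.37. Ccl5, a chemokine of effector and cytotoxic cells, read 873 and 1212 against 3503, 3066 and 2854 (-1.59 ± 0.33, adjusted p = 0.165), and Gzmb, a cytotoxic protease, 258 and 270 against 1108, 764 and 801 (-1.67 ± 0.36, adjusted p = 0.192). Both genes are also made by CD8 T and NK cells, whose markers were lower in the same arrays, and Gzmb stands on that list too. Tbx21, the Th1 factor T-bet, read 261 and 284 against 592, 353 and 370 (-0.62 ± 0.27, adjusted p = 0.643), and Il18rap, a chain of the interleukin-18 receptor, 319 and 371 against 592, 578 and 564 (-0.72 ± 0.22, adjusted p = 0.424). Foxp3, Gata3 and Bcl6, which are factors of other subsets, overlapped between genotypes. Foxp3, of regulatory T cells, read 307 and 345 against 409, 291 and 423. Gata3, of Th2 cells, read 649 and 497 against 610, 337 and 451, and Bcl6, of follicular helper cells, 304 and 461 against 404, 351 and 320. Of the 13 Th17 genes measured, 3 lay above and 1 below, beside 16% and 17.5% of all genes. Their median of 0.12 turned to -0.07 without knockout array 2 and was 0.23 without knockout array 1.

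The interleukin-1 pathway lists had no member called by limma. Of their ligands, receptors, antagonists and adaptors 1, Il18rap, had an unadjusted p under 0.05, and it is a chain of the interleukin-18 receptor. Il1r1, the receptor that the antagonist blocks, was dim, at 127 and 187 against 85.3, 81.4 and 42.1, with both knockout arrays above the wild-type arrays (1.04 ± 0.50, adjusted p = 0.689). Il1r2, its decoy, read 142 and 151 against 128, 20.4 and 96.1 (0.96 ± 0.56), and Il1rap 301 and 307 against 293, 248 and 314. The ligand Il1b read 74.8 and 164 against 101, 79.4 and 123. Of 17 signal adaptors 4 lay above and 3 below, beside 16% and 17.5% of all genes (median 0.13, or 0.08 without wild-type array 1). Myd88 read 1760 and 2058 against 1571, 1536 and 1636 (0.27 ± 0.17, adjusted p = 0.788). NF-kB target and feedback genes lay below in 8 of 23 and above in 2 (median -0.12). Traf1, an adaptor of TNF receptors, read 1220 and 1291 against 2152, 1832 and 1965 (-0.65 ± 0.21, adjusted p = 0.487), and its second probe set gave -0.26 ± 0.31. Mediators of arthritis and of the TNF family gave 6 of 22 below and 1 above, and Csf1r and Cd40 were the members of smallest p.

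Genes of dividing cells lay below in 14 of 39 and above in 0 (median -0.43). The order among the wild-type arrays was the same in many of them, with wild-type array 2 the highest: Ccnb2, a mitotic cyclin, read 1534 and 1173 against 1958, 3173 and 2184 (-0.82 ± 0.24, adjusted p = 0.382), and Birc5, survivin, 2101 and 1890 against 2505, 4140 and 2694. Without wild-type array 2 the median of the list was -0.22. Genes of oxidative phosphorylation lay below in 17 of 45 and above in 3, with small differences (median -0.11, or -0.06 without wild-type array 2). Glycolysis (median 0.03) and apoptosis genes (median -0.02) lay near the median of all genes, and their signs turned in some alternatives (-0.01 to 0.08 and -0.09 to 0.04); ribosomal protein genes had a median of 0.10 that was 0.00 under quantile normalization.

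**Figure D4:**
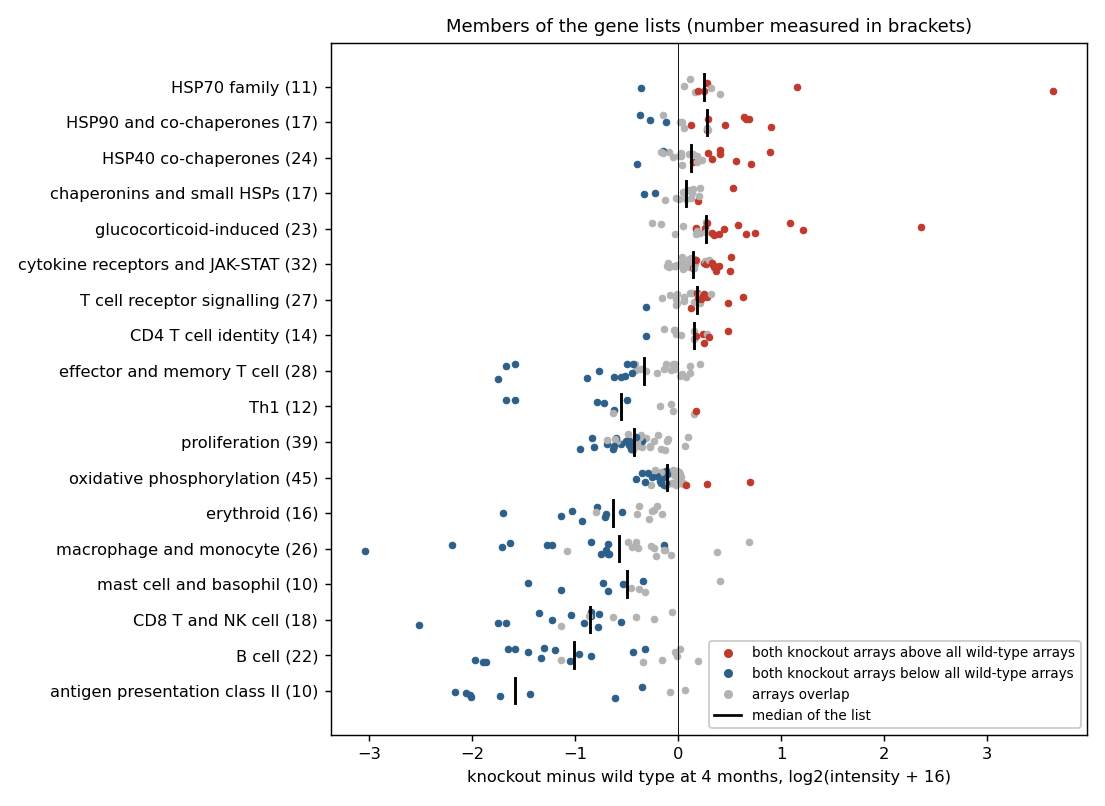
Difference at 4 months, knockout minus wild type on the log2(intensity + 16) scale, for each measured member of 18 gene lists, coloured by whether the knockout arrays lie above, below or among the wild-type arrays, with the list median as a black line. Members of the chaperone and glucocorticoid-induced lists lie mostly right of 0, and those of the B cell, class II, CD8 T and NK cell and macrophage lists mostly left, down to medians of -1.01, -1.59, -0.86 and -0.58.

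Beyond the called genes, 68 named genes lay apart above and 169 below by at least 1 on the log2 scale without passing. Those of smallest p with higher knockout values began, after Tsc22d3 and Hsph1, with Lce1h (1.93 ± 0.49) and Vegfa, the vessel growth factor, at 58.3 and 64.3 against 6.51, 9.13 and 6.56 (1.73 ± 0.45). Slpi, an inhibitor of neutrophil proteases, read 2997 and 4816 against 582, 2507 and 1011 (1.72 ± 0.46). Lepr, the leptin receptor, read 131 and 122 against 55.7, 22 and 17.3. The probe sets of Slc9a3r2, a scaffold of membrane exchangers, went opposite ways: the one used read 110 and 102 against 15.5, 13.9 and 41 (1.69 ± 0.47), and 1452976_a_at read 7.21 and 17.2 against 26.7, 43.8 and 60.4 (-1.06 ± 0.46). The probe set used was brighter than the array median only on the 2 knockout arrays of 4 months. It passed the filter through those high values alone. Epdr1 (3.23 ± 0.94) and Msl2, a subunit of a histone acetyltransferase complex (1.15 ± 0.34), came later in that order, and 1 of the other 2 kept probe sets of Msl2 overlapped (-0.02 ± 0.24), as did both of Epdr1. Epdr1 varied among wild-type mice, at 16.2, 542 and 10.3, against 881 and 581 in knockout mice.

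The genes of smallest p with lower knockout values were Ly86, Fcmr, Cpa3, Oas1a and Ccl5, given above, and 7 others. Pcsk6, a proprotein convertase, read 14.7 and 12.3 against 80.6, 135 and 156 (-2.20 ± 0.40, adjusted p = 0.0974). Zgrf1 read 183 and 166 against 375, 418 and 342 (-1.05 ± 0.19, adjusted p = 0.0974), with little spread within either genotype. Ccdc68 read 12.3 and 25.1 against 135, 149 and 107 (-2.09 ± 0.39). The pseudogene Pisd-ps3 differed at both ages (-1.11 ± 0.21 at 4 months, adjusted p = 0.11; -1.49 ± 0.21 at 1 month, adjusted p = 0.0269), but 1 of its 3 other kept probe sets overlapped at 4 months (0.09 ± 0.51). The remaining ones, 1434975_x_at and 1429452_x_at, gave -1.95 ± 0.20 and -2.06 ± 0.51. Both are marked as binding several transcripts. Upb1, an enzyme of pyrimidine breakdown, Dusp3, a phosphatase, and Slc6a20a, an amino acid transporter, differed by -1.85 ± 0.37, -1.77 ± 0.37 and -1.71 ± 0.36.

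The 4-month difference was set against that of the younger mice with an interaction term, over arrays that the ages do not share. At 1 month 9 genes were called, and 3 genes, Arl2bp, Oas1b and Ctps2, were called at both ages. For these 3 no change between the ages was detected (interaction -0.46 ± 0.32, -0.70 ± 0.48 and -0.22 ± 0.44; adjusted p = 0.653, 0.644 and 0.893). The other 7 genes called at 4 months were not called at 1 month, which does not show a difference between ages: their interaction p-values, adjusted, were 0.173 for Hspa1b, Cxcr4 and Mpeg1, 0.199 for Clec2d, 0.445 for Cirbp, 0.452 for Glo1 and 0.691 for Sfi1. Estimates at 1 month were 0.89 ± 0.35 for Hspa1b and 0.54 ± 0.22 for Cxcr4, and 1.18 ± 0.49 for Mpeg1, with the opposite sign.

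The interaction was called in 1 gene, Plac8 (0.0085% of 11759). Plac8, a protein of lymphoid and myeloid cells, read 1316 and 1384 in knockout and 2787, 2117 and 2049 in wild-type arrays at 4 months (-0.76 ± 0.17, adjusted p = 0.208), whereas at 1 month it was higher in knockout cells (1.11 ± 0.17, adjusted p = 0.0292). The change between ages was -1.87 ± 0.24 (adjusted p = 0.047). The call of Plac8 was lost in 8 of 10 fits that left out 1 array, and was kept only without wild-type array 1 or 2 of 1 month, where 8 and 2 genes were called. No gene was called by limma without knockout array 1 or 2 of 1 month, knockout array 2 of 4 months, or wild-type array 1 or 3 of 4 months. In each of the remaining 3 fits 1 gene other than Plac8, with a change in the opposite direction, was called: without knockout array 1 or wild-type array 2 of 4 months or wild-type array 3 of 1 month. From 766 to 1566 genes had an unadjusted p under 0.05 when 1 array was left out. Next in order were Ly86 (-3.15 ± 0.46, adjusted p = 0.107), Mpeg1 (-4.22 ± 0.69) and Alox5ap, an activator of leukotriene synthesis (-2.58 ± 0.43, adjusted p = 0.173). The macrophage and monocyte list had a median of -0.58 at 4 months and 0.91 at 1 month, and the granulocyte list 0.26 and 2.10; the part of those cells in these values was not tested.

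**Figure D5:**
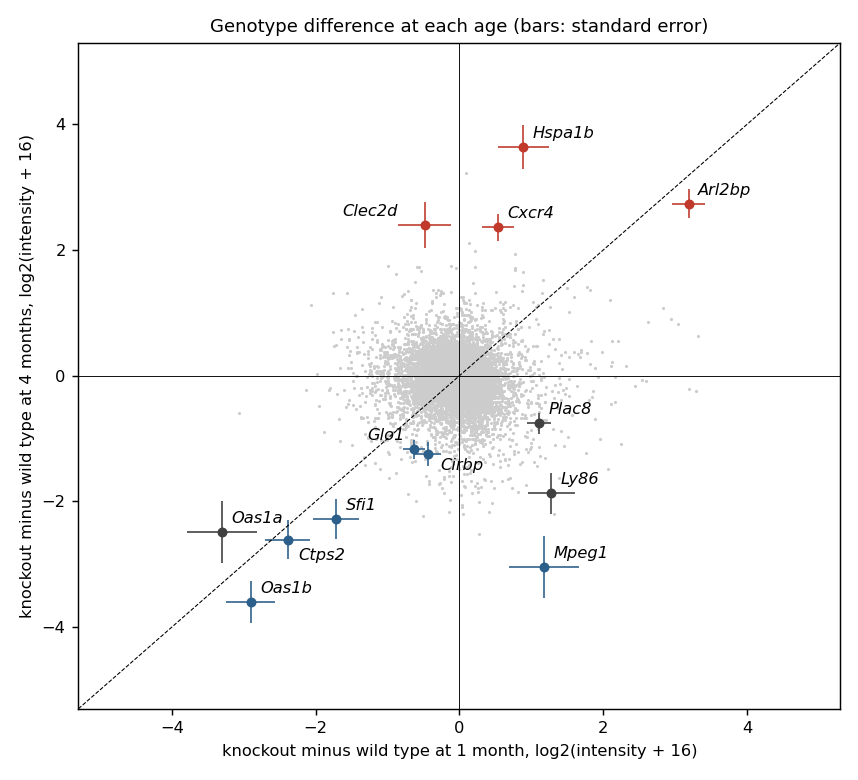
Knockout minus wild type at 1 month (horizontal) and at 4 months (vertical), both on the log2(intensity + 16) scale, for all genes in grey, with standard errors for the 10 called genes (coloured) and Oas1a, Plac8 and Ly86 (dark). Arl2bp, Oas1b, Ctps2, Sfi1 and Oas1a lie near the dashed line of equal differences, Hspa1b, Cxcr4 and Clec2d near 1-month values of 0.89, 0.54 and -0.48, and Mpeg1, Ly86 and Plac8 have opposite signs at the 2 ages.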

How the data were processed

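CD4+ cells of mouse spleen were measured on 10 arrays of 45101 probe sets. The values are intensities on a linear scale as deposited by the authors; the submitters' processing notes name MAS5, and no source used here gives its settings. Each deposited array had a 2% trimmed mean of 500, so none was rescaled. Symbols came from the platform annotation, checked against RefSeq GRCm38.p6 (34754 probe sets matched, 0 symbols changed); 932 probe sets with several genes and 9160 with none stayed out of the gene fit. A gene took the brightest of its kept probe sets, and one marked as binding several transcripts only where no other was kept. limma 3.58.1 in R 4.3.3 was fitted on 4 group means of all 10 arrays, with moderation along an intensity trend (6.06 prior and 6 residual degrees of freedom) and two-sided p-values, and was tested on simulated data. An exact test of 2 against 3 arrays cannot go below p = 0.1. Upstream sequences and their start sites are those of RefSeq, and 14 of the 18 genes looked up had an entry.

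Genes named were all past the threshold, the 12 per direction of smallest p among those not passed with separate groups and at least 1 log2, the 4 of smallest p per list plus fixed members, and the 4 of smallest interaction p, without clone names. Some fixed members are not reported here. The members and lists were chosen with earlier results of these data known, so no list has a test. Alternatives were no trend, no filter, percentile 75 as the filter, quantile normalization, pseudocounts of 1 and 64, only the 5 arrays, array weights, the mean of the probe sets, the replicate number as a block, every probe set, and each array left out.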

Additional observations from a re-analysis of the deposited data

Results flagged for a closer look

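Plac8 was singled out because its genotype difference differed between the ages by the test of that difference itself. The change, 4-month minus 1-month difference, was -1.87 ± 0.24 on the log2(intensity + 16) scale (limma, adjusted p = 0.047). At 4 months both knockout arrays lay below all wild-type arrays. The call of Plac8 was lost in 8 of 10 fits that left out 1 array and kept without wild-type array 1 or 2 of 1 month; these 10 fits gave 0 to 8 genes with such a change.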

How the results depend on the processing

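The 10 called genes kept their sign in every alternative run. Arl2bp and Cxcr4 passed in 20 of 20, Oas1b in 19 of 19, Hspa1b in 19, Ctps2 in 18, Glo1 in 17, Sfi1 in 15, Cirbp in 12, Clec2d in 9 and Mpeg1 in 6 of 20. The count at 4 months was 10. It was 75 with only the 5 arrays of 4 months and 183 with array weights, and 68 genes were called in both of these fits, 58 of them not among the 10. Among these 58 were Chordc1, Dnaja1, Dnajb1, Tsc22d3, Fos, Oas1a, Ly86, Fcmr, Ms4a1, H2-Aa, Csf1r, Cpa3, Ccl5 and Gzmb. The count was 30 of 26277 when every probe set was tested, an alternative chosen after seeing the data. Leaving out 1 array gave 3 to 13 calls, 3 without knockout array 1 and 5 without knockout array 2 of 4 months, where the lone knockout array is assumed to vary like the other groups. The 1 interaction call became 0 in limma with a pseudocount of 1, no trend, array weights, the mean of probe sets and the replicate block, with 1022 to 1169 genes at an unadjusted p under 0.05, and 0 to 8 when 1 array was left out, where Plac8 was lost in 8 of 10 fits. Same-numbered arrays of the genotypes did not deviate together at 4 months (correlations -0.000332 and -0.0329), so the numbers were not taken to pair the arrays, although granulocyte genes were high in both arrays numbered 2. With the replicate block 7 genes were called, all among the 10. With no intensity trend 7 were called too, but only 4 of the 10: Arl2bp, Oas1b, Cxcr4 and Hspa1b passed, and Ctps2, Glo1, Sfi1, Cirbp, Clec2d and Mpeg1 did not (adjusted p = 0.0518 to 0.201). The causes were not tested. With 2 knockout arrays, their number limits precision.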

Other observations

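Among probe sets that the annotation gives to several genes or to none, which the gene fit left out, 12 of 4320 were past adjusted p 0.05 when every probe set was fitted with limma. The probe set 1419370_a_at read 1594 and 1595 in knockout arrays and 23.8, 22.6 and 10.2 in wild-type arrays (5.55 ± 0.34, adjusted p = 7.99e-06), and 1449445_x_at read 3549 and 3563 against 167, 287 and 265 (3.84 ± 0.22, adjusted p = 7.18e-06). The probe set 1451644_a_at read 2007 and 1687 against 189, 109 and 150, and 1431008_at 7661 and 7569 against 1065, 765 and 870. In the other direction 1458719_at read 58 and 27.7 against 593, 571 and 666, and 1436944_x_at 816 and 1468 against 5724, 6072 and 5912.

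The measured genes next to the called genes other than Oas1b, up to 5 on each side, were set beside them after the values had been seen. Neighbours of Oas1b were not looked up. Next to Glo1, the dynein gene Dnah8 differed by -1.04 ± 0.22 at 4 months and -1.66 at 1 month. Beside Clec2d, Cd69 differed by 0.68 ± 0.25. None of the 7 measured neighbours of Arl2bp, and none of the 7 of Il1rn, had an unadjusted p under 0.05 at 4 months.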
